A study of Capra hircus with 6 samples.

Results

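The 10 genes described here belong to WNT signalling: the ligands WNT4, WNT5A and WNT5B, the secreted antagonists SFRP1, SFRP2, SFRP4, DKK2 and DKK3, the feedback gene AXIN2, and the transcription factor gene TCF7L1. They were found by gene symbol in the authors' deposited table. All 10 carried values, among 16599 genes with values in 33229 table rows. They had been picked with their differences between these lines known, WNT4 in particular because it moves in opposite directions in the knockdown lines. Their values are therefore given as a description, with fold changes and errors but no p.

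The measurement was messenger RNA sequencing of goat (Capra hircus) cells, the line mGSCs-I-SB, labelled as spermatogonial stem cells, the testis cells that renew themselves and feed sperm production. There were 6 libraries, 2 from each of 3 derivatives. The shUCHL1 line is labelled as a knockdown of UCHL1, a deubiquitinating enzyme abundant in spermatogonia, the shHSPA8 line as a knockdown of HSPA8, the constitutive HSP70 chaperone, and the shCON line carries a control hairpin and is labelled WT. All were grown in serum-containing medium. The labels give no treatment, no number of hairpins or clones per line, and do not state whether a line's 2 libraries are from different cultures. Errors and p-values then reflect no more than how these libraries differ, and that spread may be technical.

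WNT ligands are secreted lipid-modified proteins that bind frizzled receptors. In the canonical branch, frizzled with the co-receptor LRP5 or LRP6 stabilises beta-catenin, which acts with TCF/LEF factors on target genes. In the other branches, ligands such as WNT5A signal through receptors such as ROR2 to cell polarity and calcium pathways. SFRP proteins bind WNT ligands outside the cell, and most DKK proteins block LRP5 and LRP6. In the mouse gonad, WNT4 is known for its role in ovary development, and WNT5A from Sertoli cells has been tied to the upkeep of spermatogonial stem cells.

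Total counts ran from 15710532 to 16417274 per library. UCHL1 stood at 96.0 ± 2.36 CPM (library-scaled read counts, with TMM factors) in shUCHL1 and at 428 ± 32.3 CPM in shCON (SD, n = 2 each). HSPA8 stood at 2579 ± 73.4 CPM in shHSPA8 and at 4064 ± 67.9 CPM in shCON (SD, n = 2 each). Both targeted genes were thus lower than in shCON in the line named for them, UCHL1 by 4.46-fold and HSPA8 by 1.58-fold. HSPA8 stood above shCON in shUCHL1, at 5298 ± 65.4 CPM (SD, n = 2). The labelled cell type was only partly borne out. Of 22 listed spermatogonial markers, 10 had no values, ZBTB16, NANOS2 and DAZL among them. Another 5, GFRA1, RET and KIT among them, averaged under 1 CPM. The other 7 reached 1 CPM, among them ITGB1, THY1, ITGA6, ID4 and the targeted gene UCHL1. The summed level of the 12 with values was 2995 to 3047 CPM in shUCHL1, 3665 to 4019 CPM in shHSPA8 and 4483 to 5486 CPM in shCON, most of it ITGB1. All 13 listed markers of peritubular myoid cells and fibroblasts reached 1 CPM, with summed levels of 32700 to 33440 CPM in shUCHL1, 39023 to 39584 CPM in shHSPA8 and 28923 to 31134 CPM in shCON. Collagens carried that sum, and the contractile members differed among themselves. ACTA2 averaged 550 CPM in shUCHL1, 1237 CPM in shHSPA8 and 1641 CPM in shCON. In the same order of lines CNN1 averaged 0.850, 18.6 and 12.5 CPM, while MYH11 averaged 2.48, 2.44 and 1.90 CPM. COL3A1 averaged 10136, 11846 and 5862 CPM. The summed leukocyte markers (7 of 8 with values, 4 of them at 1 CPM or more) stood at 175 to 190 CPM in shUCHL1, 300 to 305 CPM in shHSPA8 and 500 to 506 CPM in shCON, most of it LCP1, with PTPRC and ITGAM under 1 CPM, whereas CD14 averaged 47.5 CPM in shUCHL1, 58.5 CPM in shHSPA8 and 36.0 CPM in shCON. The summed endothelial markers (7 of 8, 2 at 1 CPM or more) stood at 13.2 to 13.6 CPM in shUCHL1 and 11.0 to 11.6 CPM in shHSPA8. In shCON they stood at 52.7 to 55.0 CPM, most of it EMCN, with PECAM1 under 1 CPM. EMCN averaged 8.86 CPM in shUCHL1, 7.25 CPM in shHSPA8 and 50.9 CPM in shCON. No other endothelial marker with values averaged highest in shCON. CDH5 averaged 1.54 CPM in shUCHL1, 0.896 CPM in shHSPA8 and 1.09 CPM in shCON. The summed epithelial markers (7 of 7, 3 at 1 CPM or more) stood at 5.74 to 5.88 CPM in shUCHL1, 7.95 to 9.04 CPM in shHSPA8 and 23.8 to 26.5 CPM in shCON, with CDH1 under 1 CPM. The difference in that sum lay in KRT8 and KRT18, with KRT8 at 1.30 CPM in shUCHL1, 5.97 CPM in shHSPA8 and 19.8 CPM in shCON, while EPCAM was highest in shUCHL1, at 2.79 CPM there, 1.15 CPM in shHSPA8 and 1.25 CPM in shCON. The summed Sertoli cell markers (11 of 15 with values, 6 at 1 CPM or more, AMH under 1 CPM and FSHR with no value) stood at 240 to 243 CPM in shUCHL1, 198 to 245 CPM in shHSPA8 and 273 to 307 CPM in shCON. Among them SOX9 was lowest in shHSPA8, at 51.9 CPM in shUCHL1, 29.6 CPM in shHSPA8 and 71.9 CPM in shCON. GATA4 averaged 76.6, 55.5 and 103 CPM in the same order of lines. Both were highest in shCON, unlike WNT4. KITLG and GDNF were not lowest in shHSPA8, at 94.9, 116 and 92.6 CPM and at 9.02, 12.7 and 12.5 CPM in that order. The summed Leydig cell markers (3 of 8 with values, 2 at 1 CPM or more) stood at 17.6 to 21.8 CPM in shUCHL1, 17.2 to 17.9 CPM in shHSPA8 and 13.4 to 14.7 CPM in shCON, most of it NR5A1, with no values for CYP11A1 and CYP17A1. The part of these marker genes in the results below was not tested. In bulk libraries such as these, fewer cells of a type and less RNA per cell cannot be told apart.

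WNT4 had 41.7 and 42.0 CPM in shUCHL1 and 4.61 and 6.66 CPM in shHSPA8, against 16.7 and 19.7 CPM in shCON. Both shUCHL1 libraries lay above the shCON libraries and both shHSPA8 libraries below them, with no overlap between any of the lines. The shUCHL1 level was 2.30 times that of shCON (log2 fold change 1.20 ± 0.16, SE). The shHSPA8 level was 3.23 times lower than that of shCON (log2 fold change -1.69 ± 0.18, SE). Set directly against each other, the lines were 7.43-fold apart, with shUCHL1 the higher (log2 fold change 2.89 ± 0.18, SE).

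WNT5A, the typical ligand of the branches that do not use beta-catenin, was higher in both knockdown lines. It had 282 and 269 CPM in shUCHL1 and 396 and 473 CPM in shHSPA8, against 140 and 128 CPM in shCON. The lines did not overlap, shHSPA8 was the highest, and its libraries lay furthest apart. The shUCHL1 level was 2.06 times that of shCON (log2 fold change 1.04 ± 0.11, SE). The shHSPA8 level was 3.25 times that of shCON (log2 fold change 1.70 ± 0.11, SE). Between the knockdown lines shUCHL1 was the lower by 1.58-fold (log2 fold change -0.66 ± 0.11, SE), so WNT4 and WNT5A stood in opposite order there.

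WNT5B, the close paralogue of WNT5A, was far less abundant. It had 6.84 and 7.01 CPM in shUCHL1 and 3.16 and 3.43 CPM in shHSPA8, against 2.41 and 3.73 CPM in shCON. The shUCHL1 libraries stood above all others, while the shHSPA8 values fell between those of shCON. The log2 fold change over shCON was 1.17 ± 0.22 in shUCHL1 and 0.10 ± 0.24 in shHSPA8 (SE). Reads shared by the WNT5A and WNT5B copies could have been assigned in a way the sources used here do not give.

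**Figure D1:**
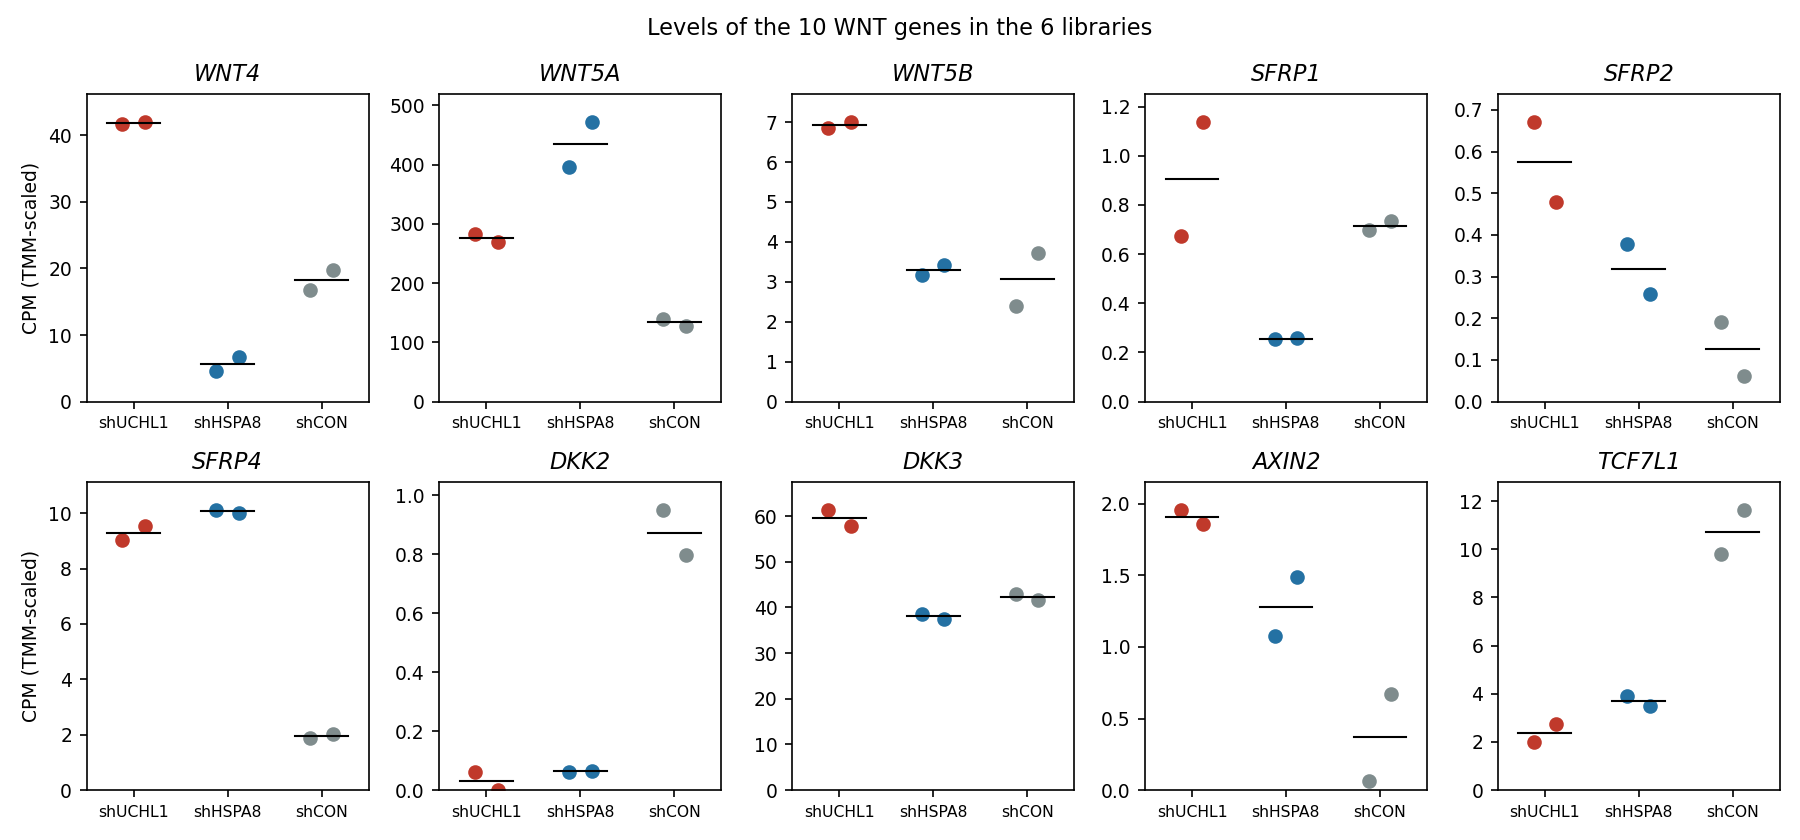
Level of each of the 10 genes in CPM (y axes, linear and from 0, with their own ranges) in the shUCHL1, shHSPA8 and shCON lines (x axes). Points are single libraries and bars are means of 2. WNT4 was highest in shUCHL1 and lowest in shHSPA8, WNT5A was lowest in shCON, and DKK2 and TCF7L1 were highest in shCON.

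Among the antagonists, SFRP4 differed most between lines of those with ample counts. It had 9.04 and 9.53 CPM in shUCHL1 and 10.1 and 10.0 CPM in shHSPA8, against 1.90 and 2.02 CPM in shCON. Every knockdown library was above both shCON libraries. The shUCHL1 level was 4.72 times that of shCON (log2 fold change 2.24 ± 0.16, SE) and the shHSPA8 level was 5.12 times that of shCON (log2 fold change 2.36 ± 0.16, SE). The difference between the knockdown lines was -0.12 ± 0.13 on the log2 scale (shUCHL1 over shHSPA8, SE), smaller than its error.

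SFRP1 and SFRP2 lay near the detection floor. SFRP1 had 11 and 19 counts in shUCHL1 and 4 and 4 counts in shHSPA8, against 11 and 12 counts in shCON. The shHSPA8 libraries were the lowest, and shUCHL1 and shCON overlapped when scaled to CPM. On the log2 scale the SFRP1 differences were 0.34 ± 0.36 for shUCHL1 over shCON, -1.46 ± 0.48 for shHSPA8 over shCON and 1.80 ± 0.45 for shUCHL1 over shHSPA8 (SE). SFRP2 had 11 and 8 counts in shUCHL1 and 6 and 4 counts in shHSPA8, against 3 and 1 counts in shCON, too few to pass the low-count filter. Its summed count was 4.62 times that of shCON in shUCHL1 (95% counting interval 1.53 to 18.7) and 2.57 times that of shCON in shHSPA8 (0.741 to 11.2). These intervals are exact conditional binomial ones and cover counting error only, and the second of them spans equality.

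DKK2, which acts on LRP5 and LRP6, was detected mainly in shCON. It had 1 and 0 counts in shUCHL1 and 1 and 1 counts in shHSPA8, against 15 and 13 counts in shCON. No knockdown library held more than 1 count. Its summed count was 28.8 times lower in shUCHL1 than in shCON (95% counting interval 4.76 to 1178) and 13.6 times lower in shHSPA8 than in shCON (3.44 to 118). DKK2 passed the low-count filter through shCON alone, where it is high, so that a difference was built into its passing.

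DKK3, a divergent DKK family member, was the most abundant antagonist of the 5. It had 61.3 and 57.9 CPM in shUCHL1 and 38.6 and 37.5 CPM in shHSPA8, against 42.9 and 41.6 CPM in shCON. The shUCHL1 libraries were the highest, and the shHSPA8 libraries lay slightly below those of shCON. The DKK3 differences were small, at 0.50 ± 0.09 for shUCHL1 over shCON and -0.15 ± 0.09 for shHSPA8 over shCON on the log2 scale (SE). Between the knockdown lines the difference was 0.65 ± 0.09 (log2 fold change of shUCHL1 over shHSPA8, SE).

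AXIN2 codes for a scaffold of the beta-catenin destruction complex and is itself a widely used target gene of the canonical branch. It had 32 and 31 counts in shUCHL1 and 17 and 23 counts in shHSPA8, against 1 and 11 counts in shCON. All knockdown libraries stood above both shCON libraries, which differed widely from each other. The log2 fold change over shCON was 2.33 ± 0.58 in shUCHL1 and 1.76 ± 0.63 in shHSPA8 (SE). Without replicate 1 of shCON these values were 1.47 and 0.90, and without replicate 2 of shCON they were 4.75 and 4.18, so the size of the AXIN2 difference rested on which shCON library was used. AXIN2 passed the low-count filter through the knockdown lines, where it is high.

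TCF7L1 codes for the TCF/LEF factor that acts mainly as a repressor of WNT target genes. It had 2.02 and 2.76 CPM in shUCHL1 and 3.92 and 3.49 CPM in shHSPA8, against 9.81 and 11.6 CPM in shCON. Both knockdown lines were well below shCON, and shUCHL1 was the lowest. The shUCHL1 level was 4.48 times lower than that of shCON (log2 fold change -2.16 ± 0.20, SE) and the shHSPA8 level was 2.89 times lower than that of shCON (log2 fold change -1.53 ± 0.19, SE). Against shHSPA8, the shUCHL1 level differed by -0.63 ± 0.23 on the log2 scale (SE).

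**Figure D2:**
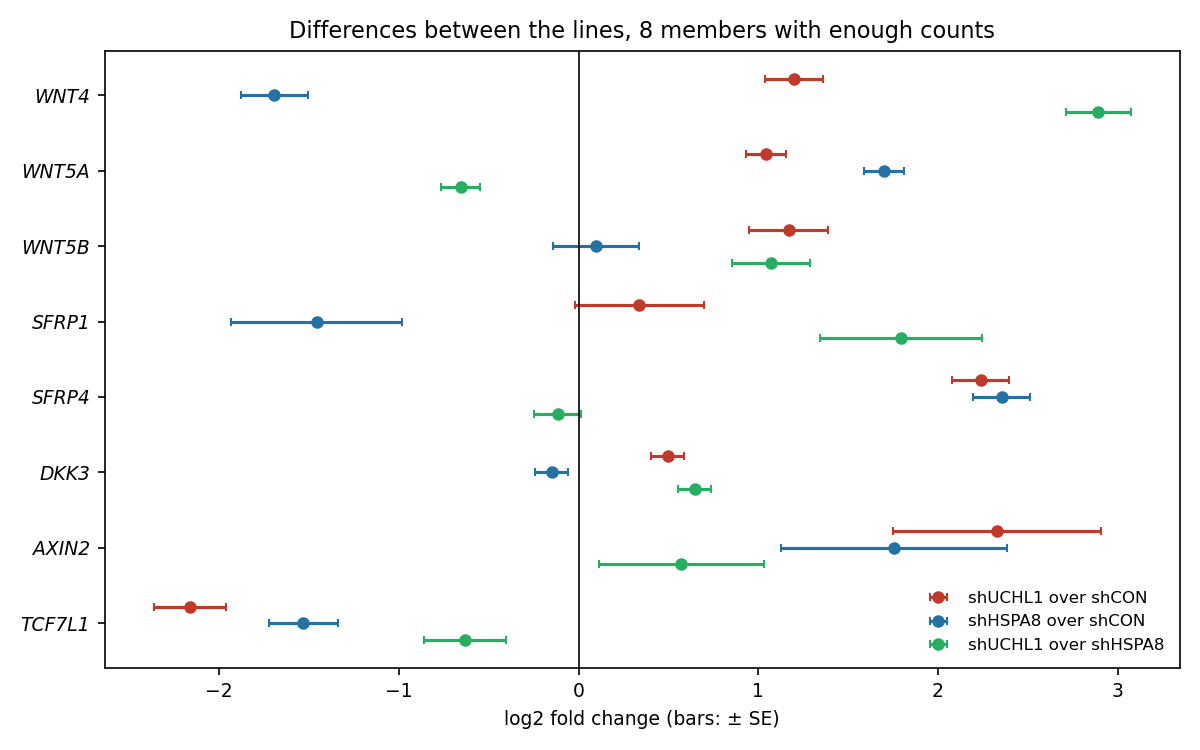
Log2 fold changes (x axis) of 8 of the 10 genes (y axis) for shUCHL1 over shCON, shHSPA8 over shCON and shUCHL1 over shHSPA8, with bars of 1 SE from edgeR's quasi-likelihood fit. SFRP2 and DKK2 are left out for their low counts. WNT4 lies at 1.20 and -1.69 over shCON, on opposite sides of 0, while TCF7L1 lies below 0 and SFRP4 above 0 over shCON in both knockdown lines.

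A gene is called here when its Benjamini-Hochberg adjusted p over all 12665 genes tested is under 0.05 in edgeR's quasi-likelihood test. In shUCHL1 over shCON, 8 of the 9 members tested were called (WNT4, WNT5A, WNT5B, SFRP4, DKK3 and AXIN2 higher, DKK2 and TCF7L1 lower), beside 15.7% of all genes tested. In shHSPA8 over shCON, 5 were called (WNT5A and SFRP4 higher, WNT4, DKK2 and TCF7L1 lower), beside 14.7% of all genes. In shUCHL1 over shHSPA8, 5 were called (WNT4, WNT5B, SFRP1 and DKK3 higher, WNT5A lower), beside 14.6% of all genes. Nothing is read from these counts, because the members were picked from these contrasts and because the comparisons with shCON share its 2 libraries. Several calls changed when a library was left out, in fits that leave 1 library in a line. In shUCHL1 over shCON, WNT5B, DKK3 and AXIN2 lost their calls when either shUCHL1 library was left out, and DKK2 without replicate 2. In shHSPA8 over shCON, DKK2 lost its call when either shHSPA8 library was left out, and AXIN2 gained one without replicate 2 of shCON. Between the knockdown lines, fewer members were called when any shUCHL1 or shHSPA8 library was left out. Fewer of all genes were called there too. Other methods ended calls too: DESeq2 did not call DKK2 in either comparison with shCON, and a replicate block ended the call of AXIN2 in shUCHL1 over shCON. The SFRP1 call in shUCHL1 over shHSPA8 was lost in DESeq2, without the low-count filter, with the replicate block and with limma on log2(FPKM + 1).

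Levels of different genes were compared per transcript length, with the deposited FPKM values. WNT5A was the most abundant of the 10 in every line, at 61.2 ± 1.90 FPKM in shUCHL1, 90.1 ± 10.3 FPKM in shHSPA8 and 28.2 ± 1.66 FPKM in shCON (SD, n = 2 each). DKK3 followed in every line, at 26.8 ± 1.07 FPKM in shUCHL1, 16.1 ± 0.467 FPKM in shHSPA8 and 18.1 ± 0.354 FPKM in shCON. WNT4 held the next place in shUCHL1 (12.7 ± 0.0919 FPKM) and in shCON (5.26 ± 0.615 FPKM), but in shHSPA8 its 1.61 ± 0.410 FPKM stood below SFRP4 and overlapped WNT5B. TCF7L1 stood just below WNT4 in shCON, at 3.95 ± 0.488 FPKM, and below WNT5B in shUCHL1, at 0.925 FPKM. At the low end, SFRP1 and SFRP2 overlapped in shUCHL1, and AXIN2 overlapped both of them in shCON. WNT5A lay above 87.5% of all tested genes in shUCHL1, 91.7% in shHSPA8 and 73.5% in shCON, and WNT4 above 51.4%, 16.0% and 32.1% in the same order of lines.

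The make-up of the ligands differed between the lines as well as their sum. Of 20 listed ligands, the WNT genes and the norrin gene NDP, 13 carried values, NDP among them at no more than 0.15 FPKM, and their summed level was 85.7 and 83.2 FPKM in shUCHL1 and 90.7 and 105 FPKM in shHSPA8, against 41.4 and 43.2 FPKM in shCON. Both knockdown lines stood clear above shCON. WNT4 made up 14.8% and 15.4% of that sum in shUCHL1, 1.45% and 1.81% in shHSPA8 and 11.6% and 13.2% in shCON. WNT5A made up 73.0% and 71.9% in shUCHL1, 91.3% and 92.5% in shHSPA8 and 70.9% and 62.5% in shCON. The ratio of WNT5A to WNT4 was 4.93 and 4.67 in shUCHL1 and 62.8 and 51.3 in shHSPA8, against 6.09 and 4.75 in shCON. Per length, the ligand pool of shHSPA8 was thus almost entirely WNT5A, while that of shUCHL1 had proportions nearer to those of shCON at a higher sum.

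**Figure D3:**
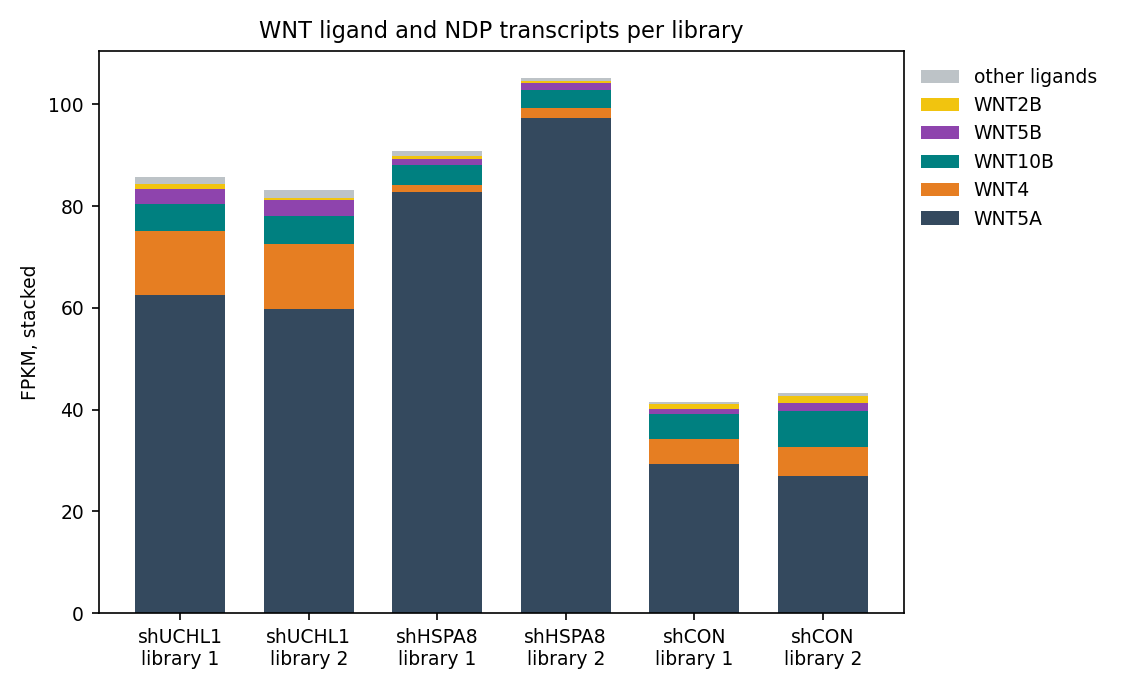
Summed FPKM of the WNT ligands and NDP (y axis, stacked from 0) in each of the 6 libraries (x axis), with the 5 most abundant ligands in colour and the rest in grey. The WNT5A segment is largest in every library, and the WNT4 segment is 1.45% and 1.81% of the stack in the shHSPA8 libraries.

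The summed level of the TCF/LEF genes was 12.6 and 12.7 FPKM in shUCHL1 and 10.1 and 10.95 FPKM in shHSPA8, against 14.7 and 15.0 FPKM in shCON. TCF7L1 made up 6.20% and 8.41% of that sum in shUCHL1 and 14.2% and 11.5% in shHSPA8, against 24.6% and 28.6% in shCON. TCF7L2, the paralogue that can activate as well as repress, had 9.93 and 9.92 FPKM in shUCHL1 and 7.30 and 8.44 FPKM in shHSPA8, against 9.29 and 8.94 FPKM in shCON. Its share of the smaller sum was 78.9% and 77.9% in shUCHL1 and 72.3% and 77.1% in shHSPA8, against 63.4% and 59.7% in shCON. The TCF7L1 share was thus smaller in each knockdown library than in either shCON library.

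The 5 genes most like WNT4, by Pearson's r of log2(CPM + 1) over the 6 libraries among 9718 genes averaging at least 5 CPM, were CNNM4 (r = 0.998), ARFGAP3 (r = 0.994), TMEM237 (r = 0.992), CNKSR3 (r = 0.991) and GKAP1 (r = 0.991). They were selected for this likeness, which is a description. Their differences were much smaller than those of WNT4, at 0.16 to 0.37 for shUCHL1 over shCON and -0.42 to -0.20 for shHSPA8 over shCON (log2 fold changes).

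The pathway around the members was described with a list of 140 WNT pathway genes in 9 roles, of which 117 carried values. Without the 10 members, 90 of 130 were tested. In shUCHL1 over shCON, 14 rose and 7 fell, in all 23.3% of those tested, beside 15.7% of all genes, with a median log2 fold change of 0.09 beside 0.01 over all genes. In shHSPA8 over shCON, 9 rose and 10 fell (21.1%, beside 14.7%), with a median of 0.04 beside 0.00 over all genes. In shUCHL1 over shHSPA8, 13 were higher and 11 lower (26.7%, beside 14.6%), with a median of 0.10 beside 0.02 over all genes. Scaled by library size alone, which moved the median of all genes to 0.12 there, 16 were higher and 8 lower. When either library of a compared knockdown line was left out, fewer pathway genes were called in each comparison. Fewer of all genes were called as well. Such a fit leaves 1 library in that line, so dependence on a single library cannot be read from it. In shUCHL1 over shCON the list's share then no longer stood above that of all genes.

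Of the receptors and co-receptors, 15 were tested besides the R-spondin receptors. In shUCHL1 over shCON 4 of them rose (26.7%, beside 15.7% of all genes): FZD4, FZD8, LRP5 and ROR1. FZD4 averaged 43.8 ± 0.915 CPM in shUCHL1, against 23.2 ± 1.60 CPM in shCON (SD, n = 2 each; log2 fold change 0.91 ± 0.10, SE; adjusted p = 0.00185, edgeR with Benjamini-Hochberg adjustment). LRP5, the canonical co-receptor, averaged 4.15 ± 1.30 CPM in shUCHL1, against 1.49 ± 0.0524 CPM in shCON (log2 fold change 1.47 ± 0.28, SE; edgeR adjusted p = 0.0140). The LRP5 call was also lost with weights per line (limma adjusted p = 0.0966), and that of ROR1 in DESeq2 (adjusted p = 0.0703). Of the 14 pathway genes that the naming rule took in this comparison besides the members, FZD4 alone kept its call without each library in turn.

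In shHSPA8 over shCON, 4 receptors or co-receptors rose (ROR2, FZD1, PTK7 and FZD4) and FZD7 fell. That was 33.3% of those tested, beside 14.7% of all genes. ROR2, a receptor of WNT5A, averaged 6.72 ± 1.37 CPM in shHSPA8, against 1.15 ± 0.0715 CPM in shCON (log2 fold change 2.54 ± 0.24, SE; edgeR adjusted p = 6.95e-04). PTK7, a co-receptor in the polarity branch, averaged 292 ± 9.51 CPM in shHSPA8, against 185 ± 14.3 CPM in shCON (log2 fold change 0.66 ± 0.09, SE; edgeR adjusted p = 0.0035). FZD1 averaged 134 ± 2.08 CPM in shHSPA8, against 70.0 ± 0.881 CPM in shCON (log2 fold change 0.93 ± 0.08, SE; edgeR adjusted p = 5.84e-04). ROR2, PTK7 and FZD1 kept their calls without each library in turn, while FZD4 and FZD7 lost theirs when either shHSPA8 library was left out, FZD7 also with weights per line (limma adjusted p = 0.0756). ROR2, PTK7 and FZD1 were also lower in shUCHL1 than in shHSPA8, at log2 fold changes of -1.66 ± 0.21, -0.81 ± 0.09 and -0.70 ± 0.08 (SE), with edgeR adjusted p of 0.00418, 0.00249 and 0.00315. These calls were lost without replicate 1 of shUCHL1, and that of FZD1 also without replicate 2. Of the 15 receptors and co-receptors, 9 were called between the knockdown lines (60%, beside 14.6% of all genes), 5 of them lower in shUCHL1 and 4 higher. The higher ones were ROR1, the paralogue of ROR2, FZD6, FZD7 and FZD8, at log2 fold changes of 1.55 ± 0.29, 1.24 ± 0.22, 0.75 ± 0.13 and 0.69 ± 0.14 (SE), with edgeR adjusted p of 0.0154, 0.0125, 0.0118 and 0.0205. Each of these 4 calls was lost when replicate 1 of shUCHL1 or replicate 1 of shHSPA8 was left out. Those of ROR1, FZD6 and FZD8 were also lost without replicate 2 of shUCHL1, and that of FZD8 without replicate 2 of shHSPA8. ROR1 and ROR2 thus stood in opposite order between the knockdown lines.

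CELSR1, a cadherin of the planar polarity branch, was ordered like WNT4 across the lines. It had 3.18 and 3.06 CPM in shUCHL1 and 0.316 and 0.388 CPM in shHSPA8, against 1.71 and 1.59 CPM in shCON. It rose in shUCHL1 over shCON (log2 fold change 0.91 ± 0.21, SE; edgeR adjusted p = 0.0259), a call lost when any 1 of the shUCHL1 or shCON libraries was left out and also in DESeq2, with the replicate block, with weights per line and with limma on log2(FPKM + 1), at adjusted p of 0.068 to 0.307. CELSR1 passed the low-count filter through shUCHL1 and shCON, where it is higher, so its difference in shHSPA8 is a description with no p. The log2 fold change of shHSPA8 over shCON was -2.21 ± 0.31 (SE). Its call there was lost with limma on log2(FPKM + 1). The formin gene DAAM1, of the same branch, was higher in shUCHL1 than in shHSPA8 (27.2 ± 0.0655 against 13.1 ± 1.16 CPM, SD, n = 2 each; log2 fold change 1.05 ± 0.13, SE; edgeR adjusted p = 0.00327).

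The R-spondin receptor LGR4 and the WNT-cleaving protease gene TRABD2B fell in both knockdown lines. LGR4 averaged 84.4 ± 3.09 CPM in shUCHL1 and 58.9 ± 5.32 CPM in shHSPA8, against 142 ± 29.3 CPM in shCON (SD, n = 2 each). Its log2 fold change was -0.75 ± 0.15 in shUCHL1 and -1.27 ± 0.15 in shHSPA8 (SE; edgeR adjusted p = 0.0166 and 0.00199). TRABD2B averaged 27.8 ± 1.08 CPM in shUCHL1 and 23.3 ± 0.760 CPM in shHSPA8, against 46.3 ± 7.08 CPM in shCON. In shUCHL1 both calls were lost when either shUCHL1 library was left out, while in shHSPA8 both were kept.

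Of the ligands outside the members, WNT10B was the most abundant. It had 13.3 and 13.8 CPM in shUCHL1 and 10.3 and 9.37 CPM in shHSPA8, against 13.0 and 18.6 CPM in shCON. WNT10B and WNT2B fell in shHSPA8 over shCON (log2 fold changes -0.69 ± 0.19 and -1.57 ± 0.39, SE; edgeR adjusted p = 0.0499 and 0.0384), where WNT4 was also lower. Both calls were lost when either shHSPA8 library or replicate 2 of shCON was left out, and that of WNT10B also when either shUCHL1 library was. The WNT2B call was also lost in DESeq2, with the replicate block and with weights per line (adjusted p of 0.0549 to 0.158). The WNT10B call was also lost with no low-count filter, the 1 CPM filter, the 2 lines alone, the replicate block, weights per line and limma on log2(FPKM + 1) (adjusted p of 0.0502 to 0.105). The antagonist WIF1 averaged 13.5 ± 1.16 CPM in shUCHL1, against 7.51 ± 0.399 CPM in shCON (log2 fold change 0.85 ± 0.15, SE; edgeR adjusted p = 0.00943), a call lost when either shUCHL1 library was left out.

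Other feedback and target genes did not all stand as AXIN2 did. SP5, a direct target of the canonical branch, averaged 2.12 ± 0.285 CPM in shUCHL1 and 1.69 ± 0.0184 CPM in shHSPA8, against 0.619 ± 0.249 CPM in shCON (SD, n = 2 each). Like AXIN2, SP5 passed the low-count filter through the knockdown lines, where it is high. Its values are therefore a description with no p. The SP5 log2 fold change was 1.76 ± 0.32 for shUCHL1 over shCON and 1.43 ± 0.33 for shHSPA8 over shCON (SE). Without replicate 1 of shCON the second value was 1.06. Nothing is read from the SP5 calls. In shHSPA8 over shCON the call was lost in DESeq2, with the 2 lines alone, the replicate block and weights per line. CCND1, a cell cycle gene often listed as a target, averaged 162 ± 6.82 CPM in shUCHL1, against 228 ± 8.74 CPM in shCON (log2 fold change -0.50 ± 0.08, SE; edgeR adjusted p = 0.00936). BAMBI, a decoy receptor and target gene, averaged 1.03 ± 0.185 CPM in shUCHL1, against 3.14 ± 0.409 CPM in shCON (log2 fold change -1.60 ± 0.26, SE; edgeR adjusted p = 0.0077). WISP1, now named CCN4, averaged 34.6 ± 2.95 CPM in shHSPA8, against 15.9 ± 0.469 CPM in shCON (log2 fold change 1.12 ± 0.12, SE; edgeR adjusted p = 0.0014), while WISP2, now CCN5, averaged 3.84 ± 0.242 CPM in shHSPA8, against 11.1 ± 2.38 CPM in shCON (-1.53 ± 0.20; adjusted p = 0.00303). The CCND1 call in shUCHL1 was lost when either shUCHL1 library was left out and that of BAMBI without replicate 2, and both WISP calls were kept.

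None of the 22 tested transducers between receptor and nucleus, the dishevelled, GSK3, APC and beta-catenin genes among them, was called by edgeR in any of the comparisons. Of all genes tested, 15.7% were called in shUCHL1 over shCON, 14.7% in shHSPA8 over shCON and 14.6% in shUCHL1 over shHSPA8. At an unadjusted edgeR p under 0.05 there were 1, 2 and 1 transducers in that order, beside 3712, 3709 and 3976 of all 12665 genes. DESeq2 called 1, 1 and 0 of them in that order of comparisons, and limma with weights per line called 0, 0 and 1. Their log2 fold changes lay between -0.57 and 0.40 in edgeR's fit, and the called genes of the list lay in the other roles.

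**Figure D4:**
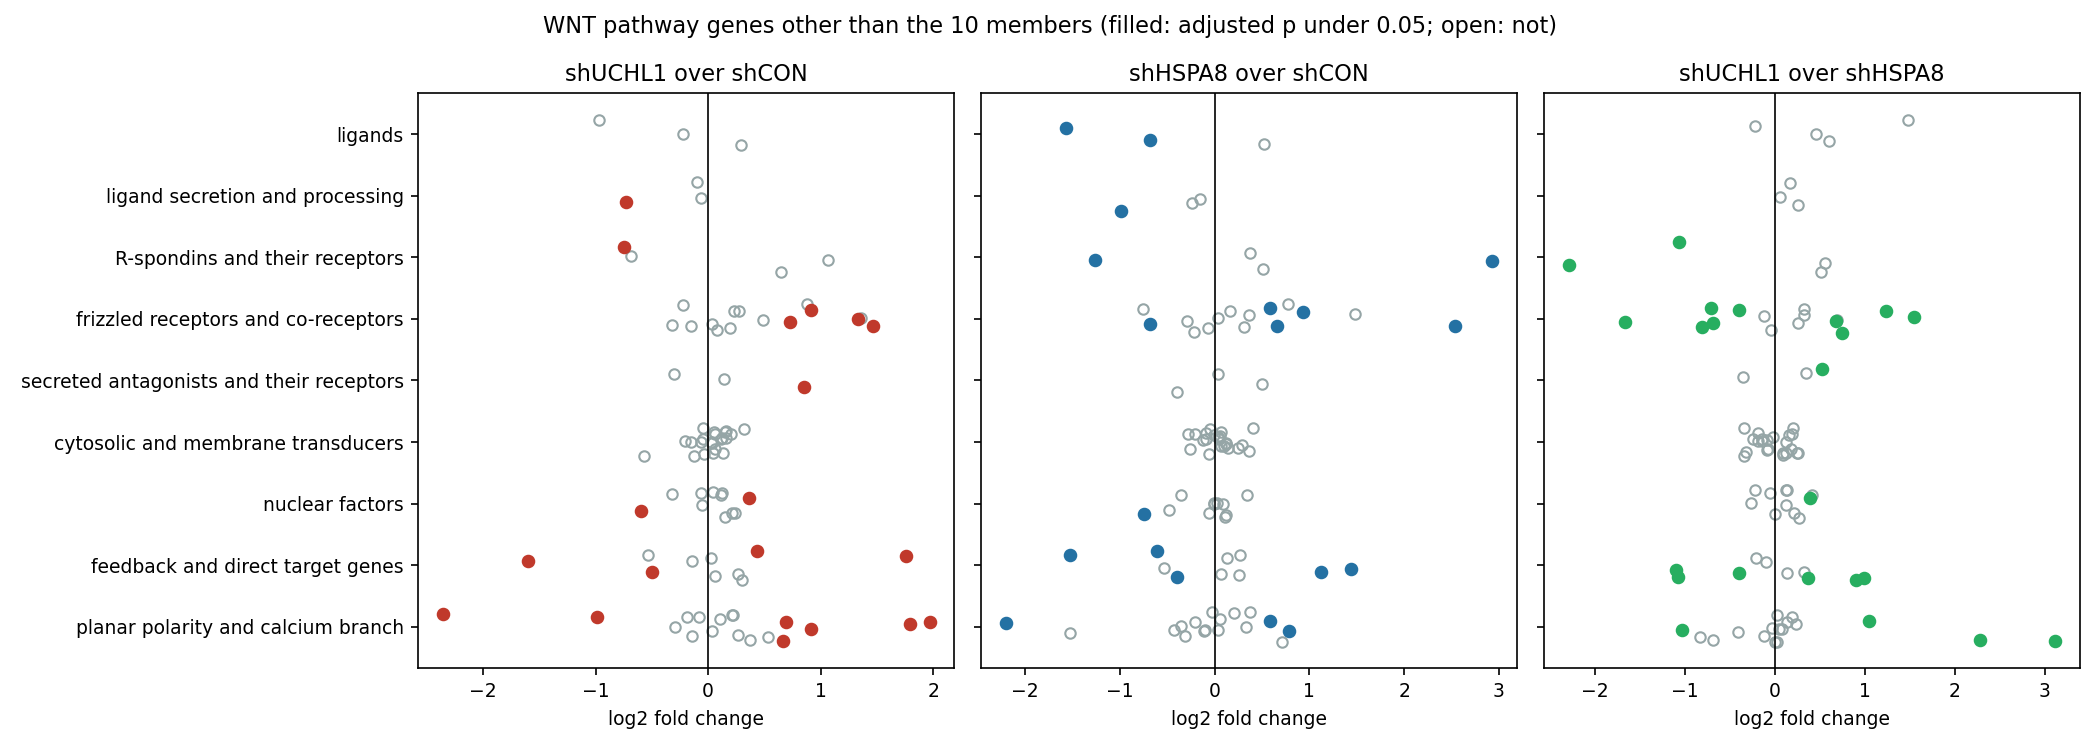
Log2 fold changes (x axes) of the tested WNT pathway genes other than the 10 members, by role (y axis; the vertical spread within a role has no meaning), for shUCHL1 over shCON, shHSPA8 over shCON and shUCHL1 over shHSPA8. Filled points have an edgeR adjusted p under 0.05 and open points do not. Genes at 3 counts or fewer in a line are not drawn for it (1, 2 and 1 genes). The 22 transducers lie between -0.57 and 0.40 with none filled.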

How the data were processed

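Messenger RNA of 6 goat cell line libraries was sequenced. Per the labels' protocols, libraries were made with a SMARTER mRNA-seq kit, and the submitters' processing notes name Trimmomatic 0.36. Aligner, counting tool, strand setting and genome build were not given in the sources used here, so no coordinates are printed. Per the file headers, the authors deposited a read count and an FPKM value per gene and library. From 1014 to 1117 genes per library have fractional counts, so the deposited counts are treated as estimates. These expected counts, as deposited by the authors, were rounded to integers for the tests. The authors' deposited FPKM served for levels between genes and for 1 alternative.

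Groups came from the sample titles. Lines were compared by quasi-likelihood F tests in edgeR 4.0.16 (R 4.3.3), after filterByExpr and TMM scaling (0.966 to 1.04), with no term besides the line and every library in 1 fit (3 residual degrees of freedom), and Benjamini-Hochberg adjustment over 12665 genes. The SE is the log2 fold change over the square root of F. Replicates differed beyond counting noise (chi-square per degree of freedom 2.32 in shUCHL1, 11.6 in shHSPA8, 21.7 in shCON). The scripts were tested on simulated data. Alternatives used DESeq2 1.42.0, limma 3.58.1 and other scalings, filters and library sets.

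The members and gene lists were chosen with earlier results of these data known. Besides the members, each comparison named up to 8 rising and 8 falling list genes that were called, did not overlap between lines and averaged at least 1 CPM, and the text gives those that bear on the members' roles. Genes at 3 counts or fewer in a line get no fitted fold. Of the listed genes, 2 were found under an older symbol. The authors' own averages, ratios and p-values were not used.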

Additional observations from a re-analysis of the deposited data

How the results depend on the processing

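The members were picked from these contrasts, so counts of their calls describe the processing alone and lend the members no support. Of the 425 values of members recomputed under an alternative, 391 kept direction and side of the threshold. The direction turned in 2: SFRP1 in shUCHL1 over shCON was -0.11 without replicate 2 of shUCHL1 and up to 0.65 without another library, and WNT5B in shHSPA8 over shCON was -0.20 without replicate 1 of shCON and up to 0.45 without another library (log2 fold changes). With each library left out, the members called numbered 4 to 8, 4 to 6 and 1 to 5 in shUCHL1 over shCON, shHSPA8 over shCON and shUCHL1 over shHSPA8. The genes called over the whole table, 1987, 1859 and 1843, then ran from 528 to 2615, 920 to 2416 and 257 to 3083, and the called pathway genes without the members, 21, 19 and 24, from 3 to 24, 10 to 19 and 3 to 29. The cause was not tested. With only the lines compared in the fit, 1104 genes were called in shHSPA8 over shCON and 3116 in shUCHL1 over shHSPA8; limma with weights per line called 1132 and 3456, and 10 pathway genes in shHSPA8 over shCON.

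With the replicate number as a block, 1230, 1131 and 923 genes and 13, 12 and 15 pathway genes were called in the same order. Deviations of same-numbered libraries correlated at 0.337 (shUCHL1 and shCON), -0.679 (shHSPA8 and shCON) and -0.336 (shUCHL1 and shHSPA8), and the labels do not pair them. A block with the shHSPA8 numbers crossed, added after seeing the data, called 3978, 3883 and 4453 genes and 37, 37 and 37 pathway genes. Scaling by library size alone moved the median of all genes to 0.09 in shUCHL1 over shCON and 0.12 in shUCHL1 over shHSPA8, where 16 of 24 called pathway genes were higher, against 13 of 24. DESeq2 called 15 pathway genes in shUCHL1 over shCON, 8 of them higher. Depth limits SFRP1, SFRP2, DKK2 and AXIN2, which stand at few counts.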

Other observations

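RSPO3, an R-spondin that strengthens WNT signals through LGR receptors, was picked out after its values were seen. It had 30 and 31 counts in shHSPA8, against 1 and 7 counts in shCON, and 5 and 8 counts in shUCHL1. RSPO3 passed the low-count filter through shHSPA8 alone, where it is high, so its values are a description with no p. The log2 fold change of shHSPA8 over shCON was 2.93 ± 0.52 (SE), and was 2.15 without replicate 1 of shCON and 4.78 without replicate 2. For shUCHL1 over shHSPA8 it was -2.29 ± 0.47 (SE), and was -2.01 without replicate 1 of shUCHL1 and -2.65 without replicate 2.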
